A study of Mus musculus with 6 samples.

Results

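Intraflagellar transport (IFT) and BBSome genes were followed in RNA of type II alveolar epithelial cell isolates from 2-month-old mice. The genes were chosen by symbol: those starting with Ift, Bbs, Nphp, Tctn or Dync2, with the motor, adaptor and transition zone genes Kif3a, Kif3b, Kifap3, Kif17, Ttc8, Ttc21b, Wdr19, Wdr35, Wdr60, Mkks, Mks1, Cep290, Traf3ip1 and Cluap1. On the array 43 such genes had a probe set naming them alone, and 42 of them passed the filter on dim probe sets, out of 12952 genes tested. Bbs12 was the gene below it, with signals between 167 and 337 where the filter lay at a mean log2 signal of 8.08. Arl6 and Arl13b, which the choice by symbol also covers, were not analysed here.

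The study compared Insig1 ∆/∆ /Insig2 -/- isolates with Insig1 flox/flox /Insig2 -/- isolates, with 3 pools of RNA and so 3 arrays per genotype. Insig1 and Insig2 are endoplasmic reticulum proteins that restrain SREBP-driven lipid synthesis. The deleted group carried SpC-rtTA, an activator driven by the surfactant protein C promoter of lung epithelium, and Otet-CRE, which together remove floxed Insig1 under doxycycline. The labels of both groups date doxycycline to E6.5 to E12.5. Controls were without either SpC-rtTA or Otet-CRE, and both groups were Insig2 -/-. The complete Cre system occurred in the deleted group alone, so effects of Cre and of Insig1 loss cannot be told apart. How many mice made up a pool is unstated in the labels, and p-values measure the spread between pools. Type II cell markers such as Sftpc, Sftpb and Abca3 were measured in every pool, with a summed signal over 10 type II markers of 692217 to 815900 in controls and 673641 to 799321 in deleted pools. The Insig1 probe set gave 2300.1, 3325 and 2959.5 in control pools 1, 2 and 3 and 1252, 1442 and 1750.4 in deleted pools 1, 2 and 3, groups without overlap and a log2 difference of -0.95 ± 0.18 (SE) that did not pass over all genes (limma adjusted p = 0.068). Whether this probe set lies in the deleted stretch is not known here.

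Cilia are built and kept up by IFT trains that run along the axoneme. The trains hold IFT-A and IFT-B complexes, are carried to the tip by kinesin-2 and return to the base with the dynein-2 motor. The BBSome is a coat-like adaptor that links membrane proteins to the trains, chaperonin-like proteins assemble it, and the transition zone at the cilium base acts as a gate. In the lung, the multiciliated cells of the airways carry many motile cilia, while many other cell types can carry a single primary cilium. RFX transcription factors bind the X-box, a paired motif known from promoters of ciliary genes.

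X-box letters were found in the promoter windows of 12 of the 38 members with an entry in a RefSeq promoter table (GRCm38.p6), 31.6% of them. Ift80, Ift81, Ift122 and Dync2li1 had no entry. The window ran from 250 bases before to 50 after the gene start. The letters searched were GTNNCC, then 2 to 4 bases of any kind, then GNAAC, on either strand. Of 10429 tested genes with an entry, 6.18% held such letters, as did 4.37% of all 32851 windows listed. The 12 genes were Bbs1, Bbs4, Bbs7, Ift22, Ift57, Ift74, Kif17, Mks1, Nphp4, Tctn1, Tctn2 and Tctn3, which come from IFT-B, kinesin-2, the BBSome and the transition zone. A match describes letters only and says nothing of binding. The median log2 difference between genotypes was -0.32 for these 12 and -0.35 for the 26 without a match; the difference between these medians was not tested. Windows around the matches are printed for 4 genes with a low unadjusted p between genotypes (Ift57 with its 2 matches, Ift74, Bbs1 and Tctn2) and for Mks1 and Tctn3, which did not have one. They read 5′ to 3′ on the gene's strand, with the matched letters in capitals. Ift57 site 1, Ift74, Bbs1 and Tctn2 match on the opposite strand, so their capitals are the reverse complement of the letters searched.
Ift57 site 1, chr16:49699199-49699228, plus strand: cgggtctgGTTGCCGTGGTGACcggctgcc
Ift57 site 2, chr16:49699226-49699254, plus strand: gccctgcgGTTGCCTGGTAACggtgggga
Ift74, chr4:94614478-94614506, plus strand: cggtgaccGTTGCTAGGATACgcggcgtc
Bbs1, chr19:4906605-4906634, minus strand: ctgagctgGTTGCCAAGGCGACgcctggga
Tctn2, chr5:124598679-124598708, plus strand: gattggagGTTACCATGGCTACtggtcctc
Mks1, chr11:87853183-87853212, plus strand: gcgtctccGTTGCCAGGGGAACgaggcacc
Tctn3, chr19:40612351-40612379, minus strand: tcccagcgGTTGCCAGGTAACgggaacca

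Most transport and BBSome genes had lower signals in Insig1-deleted isolates, and none passed the test over all genes. Of the 42 genes, 39 had a log2 difference below 0 (deleted minus control), against 50.9% of all genes tested, and the count was 37 when arrays were shifted to a common median, where Ift46 and Tctn1 stood above 0. It was 36 without control pool 1. The median over the 42 was -0.34 (-0.0049 for all genes), and values ran from -0.82 for Cep290 to 0.12 for Mkks. In limma's test with Benjamini-Hochberg adjustment none was called at 0.05 in either direction, where 0.0232% of all genes were called lower and 0.625% higher, and the smallest adjusted p among them was 0.22. At an unadjusted p under 0.05, 16 of the 42 were lower (38.1%) and none higher, beside 6.02% and 6.05% of all genes. These 16 were 1.26- to 1.76-fold lower. The groups did not overlap, with deleted pools lower, for 10 of the 42 (23.8%), and with deleted pools higher for none, beside 7.9% and 9.2% of all genes.

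**Figure D1:**
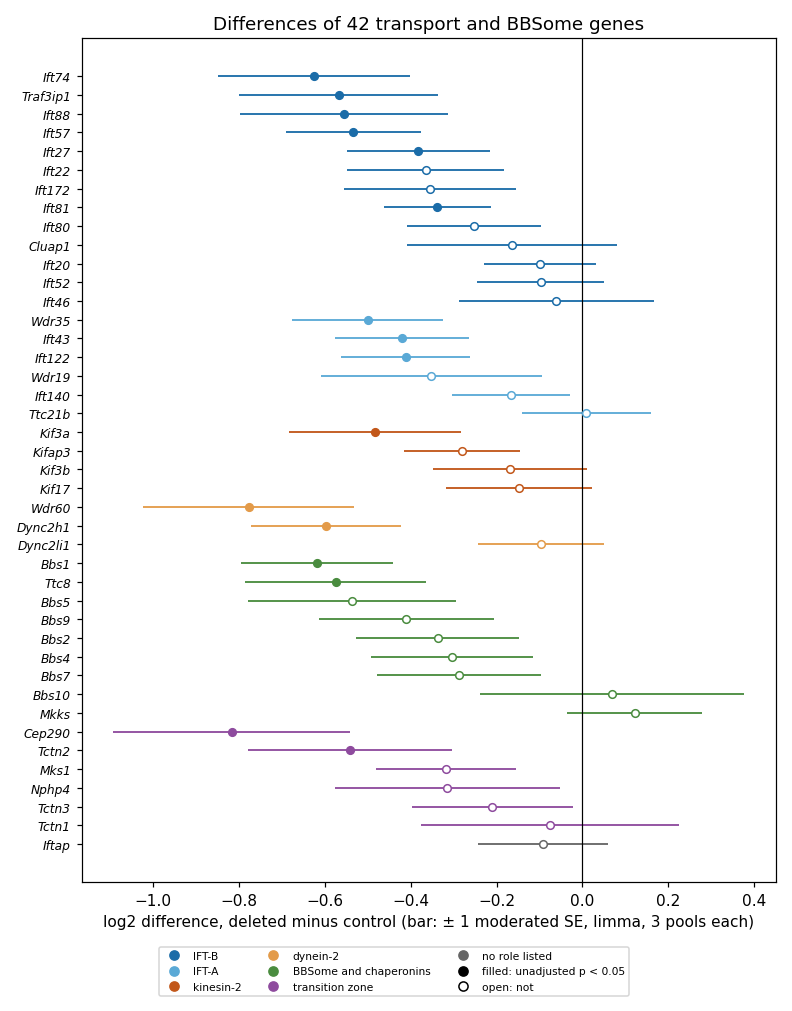
Log2 difference of each of the 42 genes (deleted minus control, x axis), grouped and coloured by role, with bars of 1 moderated SE from limma over 3 pools per genotype. Filled points mark the 16 genes with an unadjusted p under 0.05, all of them left of 0; Mkks, Bbs10 and Ttc21b lie right of 0, and under a common-median shift Ift46 and Tctn1 do too.

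The IFT-B complex, which carries tubulin and other cargo outward, had 13 measured genes, all with a log2 difference below 0 (median -0.35), although Ift46 turned positive under a common-median shift. At an unadjusted p under 0.05 were 6 of them. Ift57, a peripheral IFT-B subunit, had signals of 6025, 4555 and 6862 in control pools 1, 2 and 3 and 3986, 3703 and 4205 in deleted pools 1, 2 and 3. All deleted pools lay below all controls, and the log2 difference was -0.53 ± 0.16 (SE, limma adjusted p = 0.23). Ift74 and Ift81 form the tubulin-binding module of the core. Ift74 had signals of 4506, 2713 and 5366 in the controls and 2756, 2539 and 2549 in the deleted pools, in pool order here and in the sentences that follow (log2 -0.63 ± 0.22, adjusted p = 0.32). Its control pool 2 lay just below deleted pool 1, while the other 2 controls stood well above. Ift81 had 6797, 5274 and 6069.7 in the controls and 5046, 4617 and 4627 in the deleted pools (log2 -0.34 ± 0.12, adjusted p = 0.34). This was a smaller step, without overlap on the probe set used. Traf3ip1, whose product is the IFT54 subunit, had 7706, 3948 and 7439.9 in the controls and 3941, 4033 and 4375 in the deleted pools (log2 -0.57 ± 0.23, adjusted p = 0.38). Control pool 2 lay within the deleted range. Ift88, a core subunit needed for cilium assembly, had 3496, 2109.7 and 4314 in the controls and 2132, 1903 and 2471 in the deleted pools (log2 -0.56 ± 0.24, adjusted p = 0.40), again with control pool 2 among the deleted pools. Ift27, a small GTPase of the train, had 1847, 1584 and 2141 in the controls and 1459.7, 1235 and 1569.7 in the deleted pools (log2 -0.38 ± 0.17, adjusted p = 0.40). On this probe set the lowest control lay just above the highest deleted pool.

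The other 7 IFT-B genes did not reach an unadjusted p of 0.05. Ift22 (-0.37), Ift172 (-0.35) and Ift80 (-0.25) were the farther from 0 on the log2 scale. Cluap1 (-0.16), Ift20 (-0.10), Ift52 (-0.10) and Ift46 (-0.06) lay closer to 0, each with an SE larger than its difference. Ift20, which also serves at the Golgi, varied little between control pools, from 2898 to 3126. Ift46, which helps bring dynein arms into the cilium, had signals of 6972, 3832 and 7274 in the controls and 6047, 5755 and 4925 in the deleted pools. Control pool 2 was the lowest of all 6 pools for Ift46, and likewise for Cluap1, Ift172, Ift140, Kif3b, Dync2li1, Mkks, Nphp4 and Iftap. Iftap, an IFT-associated gene assigned to no complex here, had a log2 difference of -0.09 ± 0.15 and deleted signals between 2183 and 2189.

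IFT-A genes, whose complex serves the return of trains and the entry of membrane proteins, lay lower for 5 of 6 (median -0.38). Of these, 3 had an unadjusted p under 0.05. Wdr35, the IFT121 subunit, had 2223, 1540.5 and 2130.5 in the controls and 1489, 1237 and 1399 in the deleted pools (log2 -0.50 ± 0.18, adjusted p = 0.32). The groups did not overlap on the probe set used. Ift122, a core subunit, likewise did not overlap, with 3033, 2321 and 3130.4 in the controls and 1951, 2154 and 2226 in the deleted pools (log2 -0.41 ± 0.15, adjusted p = 0.33). For Ift43 the signals were 7551, 5349.6 and 8003 in the controls and 5008, 4978 and 5413 in the deleted pools, and control pool 2 lay inside the deleted range (log2 -0.42 ± 0.16, adjusted p = 0.34). Wdr19 stood at -0.35 ± 0.26 and Ift140 at -0.17 ± 0.14. Ttc21b, the IFT139 subunit, stood at 0.01 ± 0.15, with control pool 2 the highest of its 6 signals and control pool 1 the lowest, the opposite order to most members.

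Among the motors, dynein-2 genes had the largest median difference of the roles (-0.60 over 3 genes, against -0.22 over 4 kinesin-2 genes), a contrast that was not tested. Dync2h1, the heavy chain that moves trains back to the base, had 2273, 1537 and 1729 in the controls and 1293, 1176 and 1146 in the deleted pools, with no overlap (log2 -0.60 ± 0.17, adjusted p = 0.23). Wdr60, an intermediate chain of the same motor, had 4109, 2057 and 4019.7 in the controls and 1777, 1970.3 and 1924 in the deleted pools. Its control pool 2 stayed just above the deleted pools (log2 -0.78 ± 0.25, adjusted p = 0.26). Dync2li1, the light intermediate chain, did not follow them, with 7949.9, 5461 and 7307 in the controls and 6579.8, 6171 and 6399 in the deleted pools and a log2 difference of -0.10 ± 0.15. Kif3a, a motor subunit of kinesin-2, had 2486, 1514 and 2473 in the controls and 1574, 1452 and 1491 in the deleted pools, so control pools 1 and 3 stood apart from the other 4 pools (log2 -0.48 ± 0.20, adjusted p = 0.38). Kifap3, the accessory subunit that joins the motor to its cargo, had 4186, 3548 and 4054 in the controls and 3619, 3288 and 2819.6 in the deleted pools with control pool 2 just below deleted pool 1 (log2 -0.28 ± 0.14, adjusted p = 0.44). Kif3b (-0.17) and Kif17 (-0.15) had smaller differences on the probe sets used.

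BBSome subunits and the chaperonin-like genes differed in sign. All 7 subunit genes had log2 differences below 0, from -0.62 (Bbs1) to -0.29 (Bbs7), whereas Mkks (0.12 ± 0.16) and Bbs10 (0.07 ± 0.31), whose products help assemble the complex, stood above 0. The difference between subunits and chaperonins was not tested, and Bbs10 turned negative on its other probe set (-0.20) and without control pool 1, control pool 2 or deleted pool 3. Bbs1, the subunit bound by the ARL6 GTPase, had 1537, 1274 and 1905 in the controls and 1039, 991 and 1002 in the deleted pools. The deleted pools lay close together and below each control (log2 -0.62 ± 0.18, adjusted p = 0.22). Ttc8, the BBS8 subunit, had 2350.4, 1674 and 3031 in the controls and 1398, 1506 and 1712 in the deleted pools, with control pool 2 under deleted pool 3 (log2 -0.58 ± 0.21, adjusted p = 0.33). Bbs5 (-0.54), Bbs9 (-0.41), Bbs2 (-0.34) and Bbs4 (-0.30) did not reach an unadjusted p of 0.05 on the probe sets used. Dimmer Bbs4 probe sets had -0.40, -0.56 and -0.45. The one at -0.56 had an unadjusted limma p of 0.042 in a fit over all probe sets past the filter. Bbs9 had groups without overlap and, unlike the other subunits, its highest signal in control pool 2 (1314).

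Transition zone genes had differences below 0 for all 6 measured (median -0.32), with Tctn1 above 0 under a common-median shift. Cep290, which links membrane and microtubules at the cilium base, had 1120.3, 745 and 1417 in the controls and 788, 526 and 520.5 in the deleted pools and the largest difference of all members (log2 -0.82 ± 0.28, adjusted p = 0.30). Deleted pool 1 overlapped control pool 2. Tctn2, of the tectonic complex in the ciliary gate, had 1536, 1052 and 1867 in the controls and 1137, 1082 and 796 in the deleted pools, where control pool 2 lay below deleted pools 1 and 2 (log2 -0.54 ± 0.24, adjusted p = 0.41). Mks1 varied little within groups, with control signals of 937 to 1003 and deleted signals of 738 to 819, and a log2 difference of -0.32 ± 0.16 (adjusted p = 0.48). Nphp4 stood at -0.31 ± 0.26. Tctn3 had 1793, 1377 and 1599.5 in the controls and 1692, 1347 and 1119.6 in the deleted pools (-0.21 ± 0.19), and Tctn1 stood at -0.08 ± 0.30 with control pool 1 far above the other controls (1554 against 812 and 703).

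**Figure D2:**
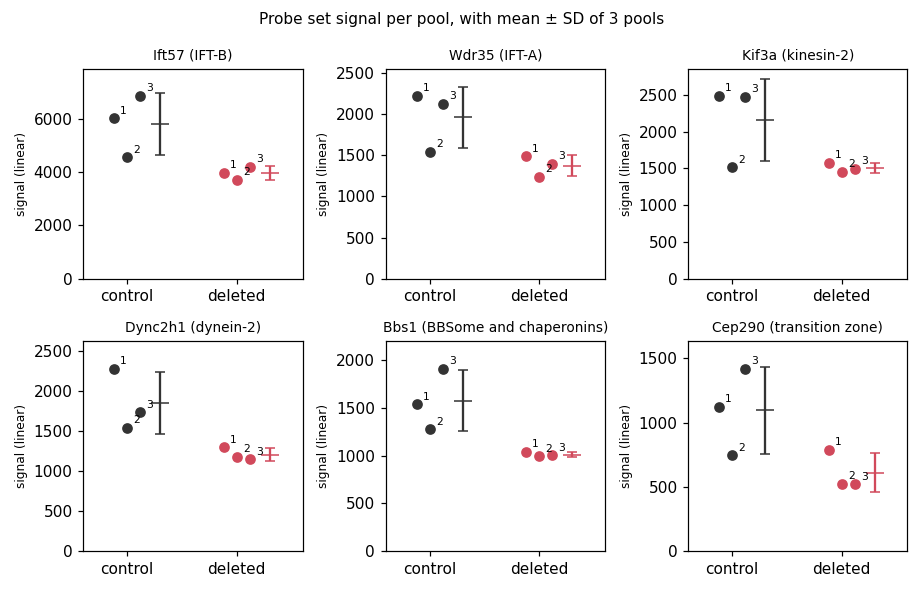
Probe set signal (linear, y axis from 0) in each numbered pool for the member with the smallest p in each of 6 roles, with the mean and SD of 3 pools beside the points. Control pool 2 is the lowest control in each panel, and for Kif3a (1514.5 in that pool) and Cep290 it lies within the deleted range.

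Control pools 1 and 3 were the high pools for most members. The median over the 42 genes of the log2 signal minus each gene's mean over 6 pools was 0.32, -0.16 and 0.32 in control pools 1, 2 and 3 and -0.13, -0.25 and -0.13 in deleted pools 1, 2 and 3. Control pool 2 thus lay with the deleted pools, between deleted pools 2 and 1. Control pools 1 and 3 were the 2 highest of the 6 for 33 of the 42 genes (78.6%), beside 14.7% of all genes. Control pool 2 was the lowest control for 36 of 42 (85.7%), beside 36.3% of all genes. It lay at or below the highest deleted pool for 31 of 42 (73.8%, and 70.3% of all genes). Control pool 1 did so for 4 (9.52%, and 69.5% of all genes) and control pool 3 for 7 (16.7%, and 63.2%). Bbs9, Bbs10, Kif17, Ttc21b, Ift20, Ift52, Mkks, Tctn1 and Tctn3 were the 9 genes with another pair of highest pools.

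**Figure D3:**
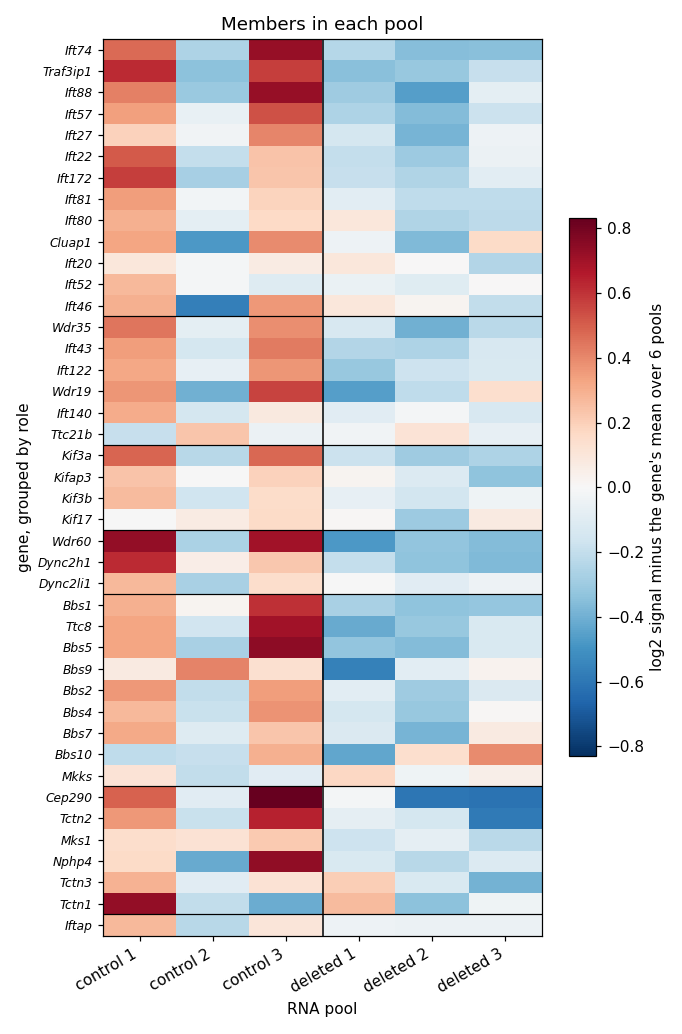
Log2 signal of each of the 42 genes in each pool minus that gene's mean over the 6 pools (colour), grouped by role with the order of the plot of differences. Control pools 1 and 3 are the red columns for most rows, while control pool 2 is pale or blue like the deleted pools.

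The number of members with low p depended on which control was left out. Without control pool 2, 9 of the 42 genes passed limma's test over all genes and were lower (21.4%), beside 2.26% of all genes in the same fit, and 28 were lower at an unadjusted p under 0.05, beside 9.85% of all genes. The 9 were Wdr60 (log2 -1.11, adjusted p = 0.0062), Traf3ip1 (-0.88), Ift74 (-0.91), Ift57 (-0.70), Ift43 (-0.60), Kif3a (-0.72), Ift88 (-0.85), Ttc8 (-0.80) and Bbs1 (-0.76, adjusted p = 0.047). Without control pool 1 none passed and 4 were lower at an unadjusted p under 0.05 (4.67% of all genes), and without control pool 3 none passed and 6 were (4.69%). Leaving out deleted pool 1, 2 or 3 left none past the threshold, and 10, 5 and 10 lower at an unadjusted p under 0.05, beside 4.64%, 3.4% and 4.49% of all genes. The median difference of the 42 ran from -0.25 without control pool 1 to -0.48 without control pool 2. Over all genes, on the first principal component control pool 3 lay farthest out (-39.1, where the other pools lay between -12.9 and 18.7), and control pools 2 and 3 had the lowest array weights (0.534 and 0.437).

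Markers of multiciliated airway cells were high in the same 2 control pools as most members. All 22 measured markers had log2 differences below 0 (median -0.63), 18 at an unadjusted p under 0.05. Ccdc153 fell by 1.18 ± 0.16 (limma adjusted p = 0.014) but had another order of pools. It had 11626, 14626 and 17724 in control pools 1, 2 and 3 and 5700, 7052 and 6384 in the deleted pools. Its control pool 2 thus lay above control pool 1 and above every deleted pool. The per-pool medians of the 22 markers were 0.58, -0.19 and 0.64 in control pools 1, 2 and 3. In deleted pools 1, 2 and 3 they were -0.50, -0.30 and -0.14, the same 2 controls being high. The summed signal of the 22 markers was 202961 to 310645 in controls, lowest in control pool 2, and 152325 to 197579 in deleted pools. The members' summed signal was 85331 to 122451 in controls, also lowest in control pool 2, and 82917 to 87566 in deleted pools. Foxj1, the master regulator of motile ciliogenesis, had 8128, 4518 and 8029 in the controls and 3278, 5304 and 6523 in the deleted pools (log2 -0.46 ± 0.29, adjusted p = 0.56). The lowest signal of a marker in any pool was 421, in a list that holds only genes past the filter on mean signal. Motile axoneme genes, 7 of them also in the marker list, lay below 0 for 27 of 27 (median -0.61), 15 at an unadjusted p under 0.05, with none called by limma over all genes. Dnah2, an axonemal dynein heavy chain gene, stood at -0.90 ± 0.20, and Ccdc39, which sets the axonemal repeat, at -0.81 ± 0.20. Control pools 1 and 3 were the 2 highest for all 27 axoneme genes and for 20 of 22 markers, all but Ccdc153 and Tmem212. No IFT or BBSome member is in either list, and the members' median was nearer to 0 than those of both, also without control pool 2 (-0.48 against -0.93 and -0.93). Whether multiciliated cells had a part in the members' difference was not tested. In bulk RNA fewer cells of a type and less RNA per cell cannot be told apart.

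**Figure D4:**
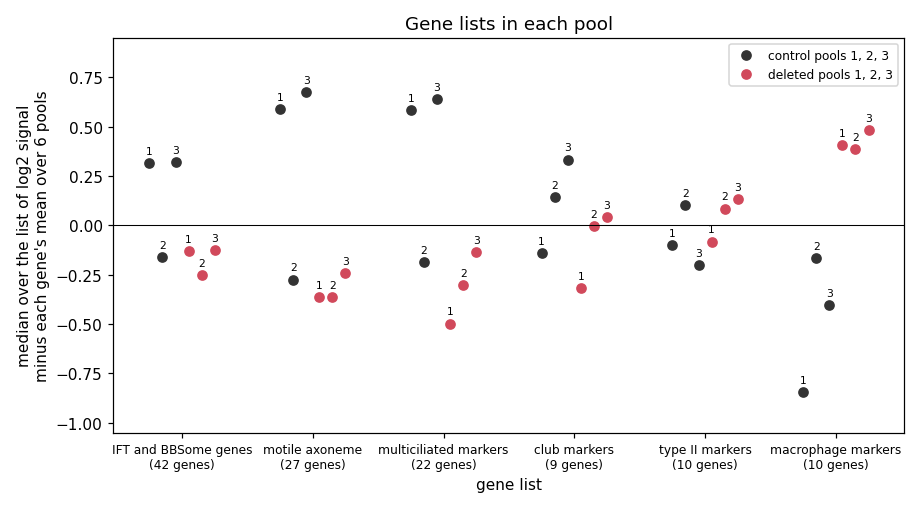
Median over each gene list of the log2 signal minus each gene's mean over 6 pools (y axis), with 1 numbered point per pool, dark for control and red for deleted. Control pools 1 and 3 stand above the other 4 pools for transport and BBSome genes, axoneme genes and multiciliated markers, and not for club, type II or macrophage markers.

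Of 2 basal airway cell markers, Krt15 was also highest in control pools 1 and 3, with 1173, 612 and 1539.6 in the controls and 169, 434 and 345 in the deleted pools (-1.82 ± 0.42). Krt5 was lowest in control pool 1 and highest in control pool 3 (-0.17 ± 0.32), and neither passed the threshold. Club and airway secretory markers lay below 0 for 9 of 9 (median -0.23) with summed signals of 529665 to 711079 in controls and 475370 to 604912 in deleted pools, and the airway transcription factor gene Sox2 fell by 0.83 ± 0.13 (adjusted p = 0.03). Type II markers lay above 0 for 8 of 10 (median 0.07, Etv5 0.44, Sftpd 0.23), with Sftpc (-0.20) and Abca3 (-0.21) below. Type I markers lay above 0 for 6 of 7 (median 0.03, Ager 0.61), with Hopx at -0.18. None was called in either list. Macrophage markers lay above 0 for 9 of 10 (median 0.94), with Lyz2 at -0.09. Of the 10, 5 were called, among them Marco (2.26 ± 0.28), Mpeg1 (1.37 ± 0.18) and Chil3 (1.06 ± 0.16), and Cd68 was called too. Their summed signal was 133033 to 180490 in controls and 189753 to 215096 in deleted pools, the lowest single signal being 174.5. Lyz2, with 100098 to 138065 over the 6 pools, made up most of that sum in each pool. Lymphocyte markers lay above 0 for 7 of 7 (median 0.40, Cd2 0.84, Nkg7 0.89). Endothelial ones lay above 0 for 4 of 7 (median 0.02), and Emcn (-0.25) and Tek (-0.19) had the smallest p. Mesenchymal ones lay below 0 for 6 of 8 (median -0.18, Tcf21 -0.49, Pdgfra -0.46), while Col1a2 stood at 0.14. Mesothelial ones lay below 0 for 3 of 4 (median -0.27, Wt1 -0.47, Upk3b -0.41), while Upk1b stood at 0.24. None was called in these 4 lists. The part of these cells in the members' difference was not tested.

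Other lists of ciliary genes had medians below 0 as well. Of 22 other trafficking genes 18 lay below 0 (median -0.25), 4 at an unadjusted p under 0.05 and none called. Arl3, a GTPase that releases lipid-modified cargo inside the cilium, had 15556, 16312 and 17838 in the controls and 12702, 13129.5 and 8968 in the deleted pools, with no overlap and its lowest control in pool 1 (log2 -0.53 ± 0.15, adjusted p = 0.22). Rabl2, a small GTPase that binds IFT-B, had 8132, 4834 and 9379 in the controls and 4577, 3824 and 4905 in the deleted pools with control pool 2 just below deleted pool 3 (log2 -0.70 ± 0.23, adjusted p = 0.28). Of 14 other transition zone genes 12 lay below 0 (median -0.36), 4 at an unadjusted p under 0.05 and none called. Tmem237 (-0.39 ± 0.13) and Tmem231 (-0.43 ± 0.15), membrane proteins of the ciliary gate, had groups that did not overlap. Of 16 basal body and assembly genes 10 lay below 0 (median -0.24), 2 at an unadjusted p under 0.05 and none called. Ttbk2, a kinase that starts cilium assembly at the basal body, had 1136, 1044 and 1023 in the controls and 638, 596 and 668 in the deleted pools. Its controls lay close together on the probe set used (log2 -0.75 ± 0.17, adjusted p = 0.12). In a fit on the dimmest probe set of each gene past the filter, Ttbk2 stood at -0.41 (limma adjusted p = 0.76). Ccp110, which caps the mother centriole, stood at -0.32 ± 0.14. Transcription factors of ciliogenesis did not share a direction, with 5 of 9 below 0 (median -0.14) and none called. The 2 with the smallest p were higher in deleted pools, E2f4 at 0.53 ± 0.18 and Rfx7 at 0.63 ± 0.28.

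Further probe sets past the filter, 21 in all, were measured for 14 of the 42 genes, and 20 of them had a log2 difference below 0. In a fit over all 27022 probe sets past the filter 4 of the 21 were lower at an unadjusted p under 0.05. None of the 21 was called by limma, where 87 of all probe sets were called in either direction. Shares of all probe sets below 0 or lower at that p were not computed. In the main fit over genes, 50.9% of all genes lay below 0 and 6.02% were lower at that p. Among the 21, the exception above 0 was a second Mkks probe set (0.17), which matched the first in sign. Sizes differed within genes. Kif3a had -1.39 ± 0.55 on a probe set with deleted signals of 127 to 739, beside -0.48 on the one used. Kifap3 had -0.65 beside -0.28, Kif17 -0.48 beside -0.15, and Bbs4 -0.40, -0.56 and -0.45 beside -0.30. Smaller differences were seen for Wdr35 (-0.14 beside -0.50) and Ift81 (-0.23 beside -0.34), and Ift27 had -0.06 and -0.45 beside -0.38. On these further probe sets of Wdr35, Ift81 and Ift27 the groups overlapped, unlike on the ones used. A further 11 member probe sets lay below the filter.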

How the data were processed

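RNA of 6 pools of isolated mouse type II cells was measured on Affymetrix arrays, 3 pools per genotype, with total RNA as the starting material per the labels. The deposited values are linear probe set signal intensities made with MAS5, as the submitters' processing notes state without a version. MAS5 scales each array alone, so differences between arrays (median signal 426 to 479) stay in the values and dim probe sets are noisy. Values were floored at a signal of 1, and log2 was computed with no further normalization. Of 45101 probe sets, those under the 40th percentile of mean log2 (8.08, signal 271) were left out, and the brightest of the probe sets annotated to 1 gene stood for it, leaving 12952 genes. The test between genotypes was limma's moderated test (version 3.58.1, R 4.3.3), two-sided, with the variance prior following intensity. P-values were adjusted by Benjamini-Hochberg over all genes, at a threshold of 0.05. Differences are deleted minus control with a moderated SE. The number of arrays limits the precision, and an exact permutation test cannot reach that threshold with 3 pools against 3. Gene names come from the platform annotation. The fit was tested on simulated data.

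The members, roles and lists were chosen with earlier results of these data known. Values in every pool are given for members with an unadjusted p under 0.05 and for the brightest of each role. From each other list come up to 4 called genes, or else the 2 with the smallest p; other members are given in brief. Alternatives were 2 normalizations, an offset of 16, no trend, array weights, other filters, a replicate block, other probe set summaries and each pool left out. Figures were drawn with matplotlib 3.10.9.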

Additional observations from a re-analysis of the deposited data

How the results depend on the processing

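No member was called over all genes in the settings tried, except Dync2h1 with array weights (1 of 42, adjusted p = 0.049) and 9 genes without control pool 2. Of all genes, 0.564% were called lower with array weights and 2.26% without control pool 2, against 0.0232% in the main fit. Leaving out each pool gave between 0 and 9 members called, between 4 and 28 at an unadjusted p under 0.05, and between 15 and 477 genes called in all. Against 84 genes in all, 29 were called without an intensity trend and 259 with array weights. Against 16 members at an unadjusted p under 0.05, 7 had one after a shift to a common median, which put the median of all genes at 0.07 and the share of all genes lower at that p at 3.13%, from 6.02%. The members' median stayed below 0 in every setting, from -0.25 to -0.48. Of 671 values of single members under the alternatives, 643 kept direction and side of the threshold, 10 came past it and 18 changed sign without being called; the latter belong to Dync2li1, Ift46, Iftap, Ttc21b, Ift52, Tctn1 and Bbs10. The cause of these changes was not tested.

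Pools with the same number deviated together only weakly (correlations 0.074, 0.04 and 0.15 over genes), so the numbers were not taken as pairs, though 5 of 6 pools correlated best with their own number. With a replicate block 132 genes and no member were called. In that fit 18 of the 42 members were lower at an unadjusted p under 0.05, beside 7.1% of all genes. The precision is limited by 3 arrays per group and, for Bbs10 (signals of 283 to 502), by a signal near the filter at 271.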

Other observations

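Genes of hedgehog signalling, which in mammals runs through the primary cilium, did not as a list share the members' order of pools. Of 9 measured hedgehog genes 5 lay below 0 (median -0.18), 1 at an unadjusted p under 0.05 and none called by limma. Boc, a co-receptor for hedgehog ligands, had 599, 540.2 and 641 in control pools 1, 2 and 3 and 282, 459.8 and 409.6 in deleted pools 1, 2 and 3 (log2 -0.66 ± 0.26, adjusted p = 0.36). Gli1, a target and effector of the pathway, had 438, 476 and 373 in the controls and 349.9, 329.8 and 291 in the deleted pools (-0.40 ± 0.26, adjusted p = 0.58). Both had groups that did not overlap on the probe sets used. Control pool 2 was not low for the list (median deviation 0.19, beside 0.17 and 0.0064 in control pools 1 and 3). Single genes differed from the list, as Boc and Cdon had their highest signals in control pools 1 and 3, like most members.

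Proliferation genes, of interest because dividing cells take down their primary cilium, lay above 0 for 7 of 7 (median 0.56), 3 at an unadjusted p under 0.05 and none called. Mki67 had 1039, 1524 and 717 in control pools 1, 2 and 3 and 2246, 1820.4 and 1658 in deleted pools 1, 2 and 3 (0.86 ± 0.26, adjusted p = 0.24), and Cdc20 stood at 0.63 ± 0.22. Their part in the members' difference was not tested.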
